A study of Mus musculus with 2 samples.

Results

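The genes described here are the writers and erasers of DNA methylation and their targeting factor: Dnmt1, Dnmt3a, Dnmt3b, Dnmt3l, Tet1, Tet2, Tet3 and Uhrf1. They were chosen by name, with no threshold on any measured value, and all 8 were found among the 43346 genes with an Ensembl identifier in the deposited tables. The tissue was the whole stomach of 2 mouse pups of strain B6NCrl, taken at postnatal day 0 from 1 dam, with sex not collected, no treatment and no genetic alteration stated. Each pup gave 1 total RNA-seq library, made from 10 ng of RNA longer than 200 nucleotides. Both libraries belong to 1 group, so the data hold a level for each gene and a comparison of littermates, and no test between conditions. The expected counts, which are estimated reads per gene, summed to 51524479 in pup 1 and 49983574 in pup 2.

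In mammals a methyl group is added to cytosine mostly where it is followed by guanine, a pair written CpG. Dnmt1 copies the existing pattern onto the new strand after DNA replication, and Uhrf1 brings it there by binding half-methylated CpG sites. Dnmt3a and Dnmt3b place methyl groups on unmethylated DNA, and Dnmt3l, which has no activity of its own, stimulates them in germ cells and early embryos. Tet1, Tet2 and Tet3 oxidise methylated cytosine, a step towards its removal. Dividing epithelia, the stomach lining among them, keep the maintenance pair in their cycling cells.

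On build mm10 (GRCm38), by the GENCODE M21 annotation, the plus-strand genes are Dnmt3a at chr12:3806007-3914443, Dnmt3b at chr2:153649450-153687730, Dnmt3l at chr10:78041947-78063622 and Uhrf1 at chr17:56303321-56323486. The minus-strand genes are Dnmt1 at chr9:20907209-20959888, Tet1 at chr10:62804570-62908996, Tet2 at chr3:133463679-133545139 and Tet3 at chr6:83362373-83459084. Several of these genes have more than 1 transcription start, and the sequences before those starts are shown first because the transcript results below turn on them and because CpG is the substrate of the enzymes. Each sequence is from RefSeq on build GRCm38.p6, reads 5′ to 3′ on the strand of the gene, ends just before the start or before annotated exon sequence, and has every CpG in capitals.
Dnmt1, main start (minus strand), chr9:20952980-20953229: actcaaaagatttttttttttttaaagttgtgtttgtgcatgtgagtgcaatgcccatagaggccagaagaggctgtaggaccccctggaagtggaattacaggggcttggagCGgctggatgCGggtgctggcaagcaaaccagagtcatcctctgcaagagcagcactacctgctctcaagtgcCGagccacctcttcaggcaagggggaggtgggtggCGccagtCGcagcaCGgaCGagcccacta
Dnmt1, distal start (minus strand), chr9:20959889-20960138: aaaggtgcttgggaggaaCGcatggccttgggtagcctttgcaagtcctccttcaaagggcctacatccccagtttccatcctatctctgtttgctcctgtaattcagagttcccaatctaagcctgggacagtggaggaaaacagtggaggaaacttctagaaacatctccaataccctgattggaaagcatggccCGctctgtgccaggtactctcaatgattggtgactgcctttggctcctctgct
Dnmt3a, upstream start (plus strand), chr12:3806730-3806979: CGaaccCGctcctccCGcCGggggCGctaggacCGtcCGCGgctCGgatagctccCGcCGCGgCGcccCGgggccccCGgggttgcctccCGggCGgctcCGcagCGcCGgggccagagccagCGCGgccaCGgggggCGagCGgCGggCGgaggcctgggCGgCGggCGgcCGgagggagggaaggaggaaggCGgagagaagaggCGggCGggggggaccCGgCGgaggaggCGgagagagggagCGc
Dnmt3a, internal start (plus strand), chr12:3891494-3891727: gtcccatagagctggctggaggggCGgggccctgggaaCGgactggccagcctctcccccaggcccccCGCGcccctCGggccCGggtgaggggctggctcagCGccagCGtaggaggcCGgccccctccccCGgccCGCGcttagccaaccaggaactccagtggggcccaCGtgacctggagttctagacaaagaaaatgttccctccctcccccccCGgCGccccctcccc
Dnmt3l, internal start (plus strand), chr10:78055085-78055334: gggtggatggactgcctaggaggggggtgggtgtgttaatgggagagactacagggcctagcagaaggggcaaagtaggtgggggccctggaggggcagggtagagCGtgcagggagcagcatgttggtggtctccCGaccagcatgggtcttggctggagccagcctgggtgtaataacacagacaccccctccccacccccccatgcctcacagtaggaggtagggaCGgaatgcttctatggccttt
Tet2 (minus strand), chr3:133544391-133544640: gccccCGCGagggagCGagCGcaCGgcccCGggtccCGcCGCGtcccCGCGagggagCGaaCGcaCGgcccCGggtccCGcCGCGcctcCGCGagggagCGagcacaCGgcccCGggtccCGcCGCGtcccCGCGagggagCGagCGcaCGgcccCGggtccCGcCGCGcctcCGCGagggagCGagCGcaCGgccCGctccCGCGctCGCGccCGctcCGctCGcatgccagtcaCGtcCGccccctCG
Uhrf1 (plus strand), chr17:56304063-56304312: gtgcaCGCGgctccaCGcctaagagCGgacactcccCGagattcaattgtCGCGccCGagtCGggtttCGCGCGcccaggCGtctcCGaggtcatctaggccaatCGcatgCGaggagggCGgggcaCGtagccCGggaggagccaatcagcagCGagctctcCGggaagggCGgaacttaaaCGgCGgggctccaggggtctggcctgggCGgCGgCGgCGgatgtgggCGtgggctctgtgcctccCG
All 8 genes had at least 1 window in the RefSeq table, 15 windows in all. The windows shown span nearly the whole range of CpG content, from 2 CpG before the distal start of Dnmt1 to 51 before Tet2, whose window is built of a repeated CpG-rich unit. The internal windows of Dnmt1, Dnmt3a and Dnmt3l lie in introns of the longer gene model.

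Stomach RNA of both pups held 7 of the 8 genes at a TPM of at least 1, the level taken as detected. TPM scales a gene's reads by its length and by the library, so genes can be compared within a library. Among 21461 nuclear protein-coding genes, 61.2% passed the same rule. The gene left out was Dnmt3l. Dnmt3a had the highest mean level, 30.3 ± 8.42 TPM (SD, n = 2 here and below), at the 71.6th percentile of the detected genes. Tet3 (17.9 ± 0.764 TPM), Uhrf1 (16.3 ± 0.643) and Dnmt1 (11.3 ± 0.0849) followed, at the percentiles 58.7, 56.2 and 46.4. Tet1 (3.91 ± 0.269 TPM), Tet2 (3.29 ± 0.339) and Dnmt3b (2.39 ± 0.269) lay low, at the percentiles 20.1, 16.5 and 10.9. The stomach was sequenced whole, so a level from few cells and a low level in many cells cannot be told apart.

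**Figure D1:**
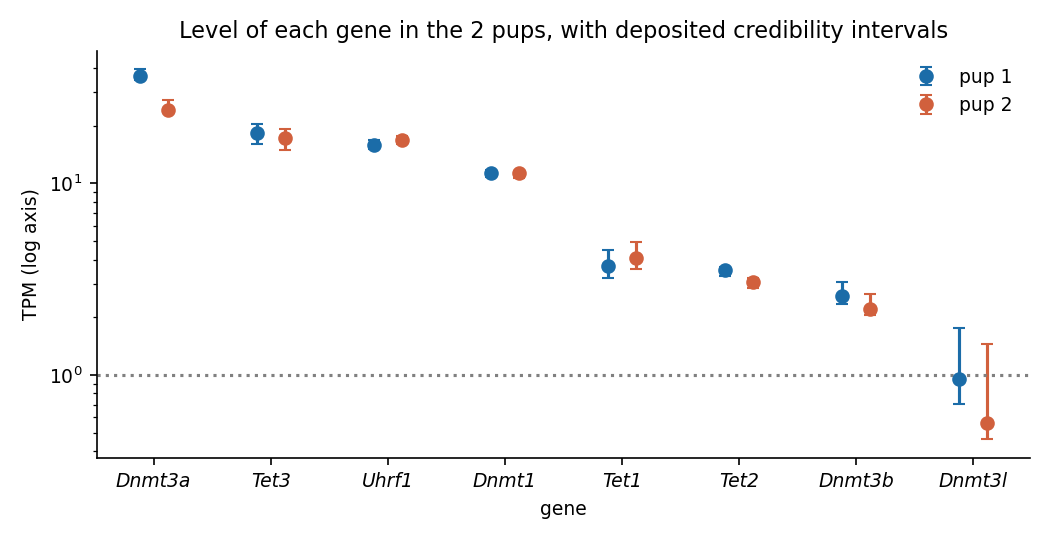
Level of each gene as TPM on a log axis, with 1 point per pup and the deposited credibility interval as the bar; the dotted line marks a TPM of 1. From left to right stand Dnmt3a alone, then Tet3, Uhrf1 and Dnmt1 between 11.28 and 18.42, then Tet1, Tet2 and Dnmt3b between 2.20 and 4.10, and Dnmt3l below the line.

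Of the maintenance pair, Dnmt1 had 11.4 TPM in pup 1 and 11.28 TPM in pup 2, estimated from 2474 and 2355 counts. Its intervals, 10.8 to 11.7 and 10.7 to 11.6 TPM, lay almost on top of each other. Uhrf1 had 15.87 TPM in pup 1 and 16.78 TPM in pup 2, estimated from 2168 and 2160 counts, and its intervals overlapped as well. Uhrf1 was above Dnmt1 in both pups, with a ratio of the means of 1.44 and no overlap of the intervals within either pup. Its gene counts were the only ones of the 8 that were not whole numbers, so some of its reads were shared with other features and were divided by estimation.

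Dnmt1 transcripts divided between a main and a distal start. Dnmt1-201, which starts at chr9:20952979 and codes for 1620 codons, made up 68.2% of the gene's TPM in pup 1 and 77.9% in pup 2. Dnmt1-202, whose first exon lies upstream at 20959888, made up 29.4% and 20.97%. It codes for 1501 codons and so lacks the N-terminal stretch. An upstream first exon and a shorter Dnmt1 protein are known from oocytes. The levels of Dnmt1-202 were 3.35 and 2.37 TPM, with intervals of 2.42 to 4.28 and 1.52 to 3.25 that overlapped between the pups. Only 156 bases and 1 splice junction belong to Dnmt1-202 alone, so its level rests on few distinguishing reads. Markers of germ cells were near 0 in both libraries: 0 of 7 were detected (Dazl, Ddx4, Sycp3, Tex19.1, Asz1, Stk31 and Mael), their TPM summed to 0.50 in pup 1 and 0.76 in pup 2, and Mael had 0 counts in both. As printed above, the distal window of Dnmt1 holds 2 CpG and the main one 7. The window before Dnmt1-203, not printed, holds 26 CpG in 250 bases, of which 166 lie in exon sequence of Dnmt1-201.

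Uhrf1 was read mainly from transcripts that code for 782 codons, 85.4% of its TPM in pup 1 and 69.9% in pup 2. Forms of 774 codons made up 12.3% and 26.9%. Within the longer forms, Uhrf1-201, from the more upstream start, had 4.94 TPM in pup 1 and 1.2 in pup 2, with intervals of 3.50 to 6.77 and 0.0124 to 3.30 that did not overlap. Uhrf1-203, which starts in the same upstream cluster, went the other way, 1.2 TPM in pup 1 and 4.21 in pup 2, and its intervals overlapped (up to 2.19 in pup 1, from 1.66 in pup 2). Only 79 bases belong to Uhrf1-201 alone and 0 to Uhrf1-203, and neither has a splice junction of its own. The split between them thus rests on few distinguishing reads. Uhrf1-204 was the main transcript in both pups, at 54.3% and 62.7%. The summed level of the gene differed far less than these parts did.

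Dnmt3a, a de novo methyltransferase, had 36.22 TPM in pup 1 and 24.31 in pup 2. Its intervals were 34.7 to 39.5 and 23.5 to 27.2 TPM and did not overlap, and the level in pup 1 was 1.49 times that in pup 2. The counts, 5360 and 4464, differed less: as a share of each library the ratio of pup 2 to pup 1 was 0.859, with an exact 95% interval of 0.825 to 0.893 that covers counting error only. The rest of the gap in TPM comes from length. The effective length that the deposited tables give the gene, an average over its transcripts weighted by their levels, was 3578 bases in pup 1 and 4621 in pup 2. Of the detected protein-coding genes, 0.922% had effective lengths at least as far apart, 1.11% had TPM values and 17.1% count shares at least as far apart.

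Dnmt3a has 18 transcripts in the deposited quantification, of which 4 are complete coding models and 14 are incomplete or noncoding. The 14 held 19.27 TPM in pup 1 and 10.86 in pup 2, which is 8.41 of the 11.9 TPM between the pups. Most of them are shorter than every complete model, and together they drew 18.3% and 11.8% of the counts but 53.2% and 44.7% of the TPM. An exception in length with a sizeable level was Dnmt3a-215 (2613 bases), with 3.27 and 1.33 TPM and overlapping intervals. Among them Dnmt3a-206 (827 bases, no annotated end) had 7.92 and 5.37 TPM, and Dnmt3a-204 (1115 bases) had 4.61 and 1.33, the latter with intervals that did not overlap. Dnmt3a-206 has 0 bases and 0 splice junctions of its own. Dnmt3a-204 and Dnmt3a-203 have 0 bases and 1 junction each, and Dnmt3a-205 has 16 bases and 0 junctions. The split of the level among these models thus rests on few distinguishing reads. A further 3.49 TPM lay in complete models. There Dnmt3a-205 had 4.22 TPM in pup 1 and 0.11 in pup 2, with overlapping intervals (1.07 to 6.87 and up to 1.60), and Dnmt3a-203, below, was higher in pup 2.

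A long and a short protein form make up the complete models of Dnmt3a. Dnmt3a-201 starts at chr12:3807030 and codes for the long form of 908 codons, and it had 6.75 TPM in pup 1 and 6.54 in pup 2. Dnmt3a-203 starts inside the gene at 3891744 and codes for 689 codons, the form known as Dnmt3a2 in embryonic stem cells and germ cells, and it had 5.97 and 6.80 TPM. Both transcripts had overlapping intervals between the pups. Dnmt3a-205 codes for the same 689 codons from a start 16 bases upstream, so the short form summed to 10.19 TPM in pup 1 and 6.91 in pup 2 and the long form to 6.75 and 6.54. How the short form compares between the pups thus depends on the loosely estimated Dnmt3a-205. Dnmt3a-203 lacks the first 6 exons of Dnmt3a-201. Markers of pluripotent cells (Pou5f1, Nanog, Zfp42, Dppa4 and Esrrb) were near 0 as well: 0 of 5 were detected, with a summed TPM of 0.25 and 0.32 and Dppa4 at 0 counts in both pups. Of the windows printed above, the upstream one, which ends at a RefSeq start some way before that of Dnmt3a-201, holds 38 CpG in 250 bases, and the one at the internal start holds 15 in 234.

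**Figure D2:**
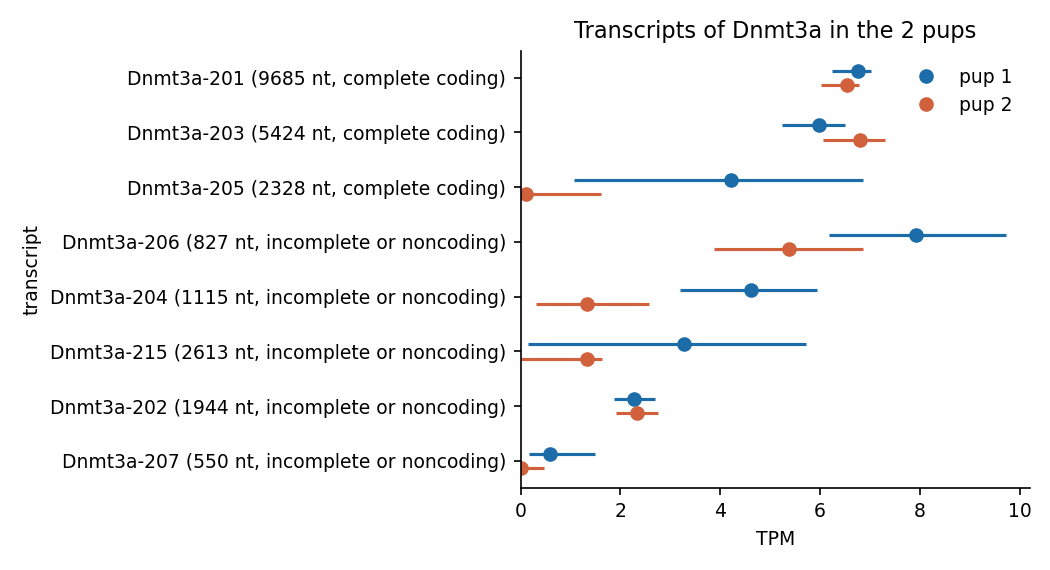
Transcripts of Dnmt3a with at least 0.5 TPM in either pup, as TPM on a linear axis, 1 point per pup with the deposited interval as a line. Dnmt3a-201 and Dnmt3a-203 lie between 5.97 and 6.80 in both pups, whereas Dnmt3a-204 (4.61 against 1.33) and Dnmt3a-205 (4.22 against 0.11) were assigned much of the gap.

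Dnmt3b, the second de novo enzyme, had 2.58 TPM in pup 1 and 2.20 TPM in pup 2, with 387 and 337 counts behind them, and its intervals overlapped (2.36 to 3.04 and 2.05 to 2.64). The transcript given most of this level was Dnmt3b-206, with 1.59 TPM in pup 1 and 1.24 in pup 2, which is 61.8% and 56.4% of the gene. It codes for 776 codons. Compared with Dnmt3b-202 it lacks exons 10, 21 and 22 of 23, of 60, 70 and 119 bases, the pattern of the form known as Dnmt3b3, which is held to be inactive as an enzyme. Forms of 860 codons made up 31.2% and 23.0%. With few reads and many overlapping models these shares are loose. In both pups the TPM of Dnmt3b-206 lay just above the upper bound of its own deposited interval (1.57 and 1.19), and by the posterior mean estimate the 776-codon forms held 42.4% and 37.4%.

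Dnmt3l had 0.95 TPM in pup 1 and 0.56 TPM in pup 2, on only 36 and 21 counts. The ratio of count shares was 0.601 with an interval of 0.334 to 1.06, so a difference between the pups was not detectable at this depth. No count was assigned to the 3 transcripts that code for the full protein of 421 codons. Such a zero is an estimate among overlapping models and not an observed absence: the deposited upper bounds of these 3 transcripts reached 0.152 TPM in pup 1 and 0.105 in pup 2. By that estimate 34 of 36 counts in pup 1 and 20 of 21 in pup 2 were given to transcripts of 126 codons that start inside the gene at chr10:78055335. By the posterior mean estimate the 126-codon forms held 57.5% and 47.4% of the TPM and the 421-codon forms 11.95% and 10.7%, so the full-length form cannot be called absent. The window before this internal start, printed above, holds 3 CpG in 250 bases.

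Of the oxidising enzymes, Tet3 led with 18.42 TPM in pup 1 and 17.34 TPM in pup 2, on 3303 and 3150 counts. Tet1 had 3.72 and 4.10 TPM from 847 and 886 counts, and Tet2 had 3.53 and 3.05 TPM from 1327 and 1102 counts. Tet3 was above the others in both pups, and its share of the family's summed TPM was 71.3% ± 0.674. The intervals of Tet1 and Tet2 overlapped in 1 pup and were apart in the other. Tet1 had fewer counts than Tet2 in both pups and yet a higher TPM.

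Short models set much of the TPM of Tet3 and Tet1. Tet3-204, an incomplete model of 469 bases, held 98.86 of 3303 counts in pup 1, or 2.99%, but 35.1% of the gene's TPM. In pup 2 it held 2.18% of the counts and 27.0% of the TPM. Tet3-201, a processed transcript, held another 27.9% and 34.6% of the TPM. The complete models were even between the pups: Tet3-202 (1668 codons) had 5.07 and 4.85 TPM, and Tet3-203 (1803 codons), which includes the exons of the CXXC DNA-binding domain, had 1.75 and 1.80. For Tet1, the processed transcript Tet1-202 held 11.2% and 13.5% of the counts and 44.1% and 52.2% of the TPM, while Tet1-206, coding for 2039 codons, had 1.22 and 1.27 TPM. Tet2 has 1 transcript in the deposited quantification, of 1912 codons, so no such division could be made.

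The order of the 8 genes depended on which transcripts were counted. By gene TPM it ran Dnmt3a, Tet3, Uhrf1, Dnmt1, Tet1, Tet2, Dnmt3b and Dnmt3l. Tet3 and Uhrf1, neighbours in this order, had overlapping intervals in both pups. Counting complete coding transcripts alone, Uhrf1 (15.9 ± 0.523 TPM) and Dnmt3a (15.2 ± 2.47) came first with overlapping pups, followed by Dnmt1 (11.3 ± 0.0778), Tet3 (6.74 ± 0.120), Tet2 (3.29 ± 0.339), Dnmt3b (2.27 ± 0.170), Tet1 (1.27 ± 0.0636) and Dnmt3l (0.635 ± 0.219). Dividing the CPM of the whole gene (its count per total of the library) by the length of its longest complete transcript gave that same order, from Uhrf1 at 11.9 ± 0.226 CPM per kb to Dnmt3l at 0.307 ± 0.108. Tet1 thus moved from above Tet2 to below it, and from above Dnmt3b to below it, on both of these scales. Tet3 went from the second place to the fourth. Within each family the leader stayed in place: Dnmt3a held 67.1% ± 5.25 of the summed TPM of the 4 Dnmt genes and 51.4% ± 3.25 by complete transcripts, and Tet3 held 59.7% ± 1.03 of its family by complete transcripts.

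**Figure D3:**
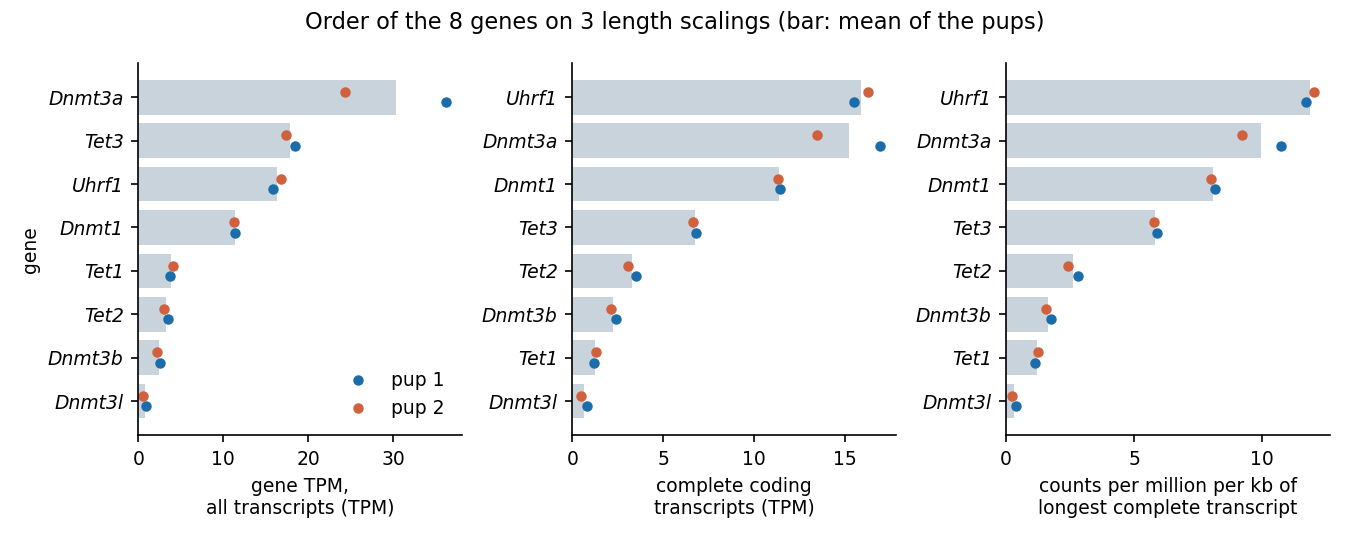
Mean level of each gene (bar) and the value in each pup (points) on 3 scales, from left to right gene TPM, TPM of complete coding transcripts, and CPM per kb of the longest complete transcript. Dnmt3a leads on the left at 30.3 TPM, and Uhrf1 leads in the other panels, at 15.9 TPM and 11.9 CPM per kb.

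Between the littermates, 0 of the 7 detected genes differed at least 2-fold with intervals apart and a mean count of at least 100. By that rule 0.344% of detected protein-coding genes with enough counts differed. With intervals apart at any fold, 2 of 7 differed, Dnmt3a and Tet2, against 21.6% of detected genes. Tet2 had intervals of 3.30 to 3.68 TPM in pup 1 and 2.84 to 3.19 in pup 2. Its ratio of count shares was 0.856 (0.790 to 0.928), and with 1 transcript quantified it gave 0.864 by TPM. For the other 6 genes the interval of the count ratio included 1; that of Dnmt1 was 0.927 to 1.04. The count share was lower in pup 2 in 5 of the 7 detected genes, the exceptions being Tet1 and Uhrf1, against 43.3% of detected protein-coding genes. The main transcript differed between the pups in 2 of the 6 detected genes with several transcripts, against 8.25% of such genes: Dnmt3a (Dnmt3a-206 in pup 1, Dnmt3a-203 in pup 2) and Tet3 (Tet3-204 and Tet3-201). In both genes the TPM intervals of these 2 transcripts overlapped within each pup, so which one led was not settled in either pup. Dnmt3a-201, at 26.9% in pup 2, also lay close to Dnmt3a-203, at 27.98%. None of the transcripts named as main had intervals apart between the pups. Each of these differences is between single libraries, without replicates behind either side.

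**Figure D4:**
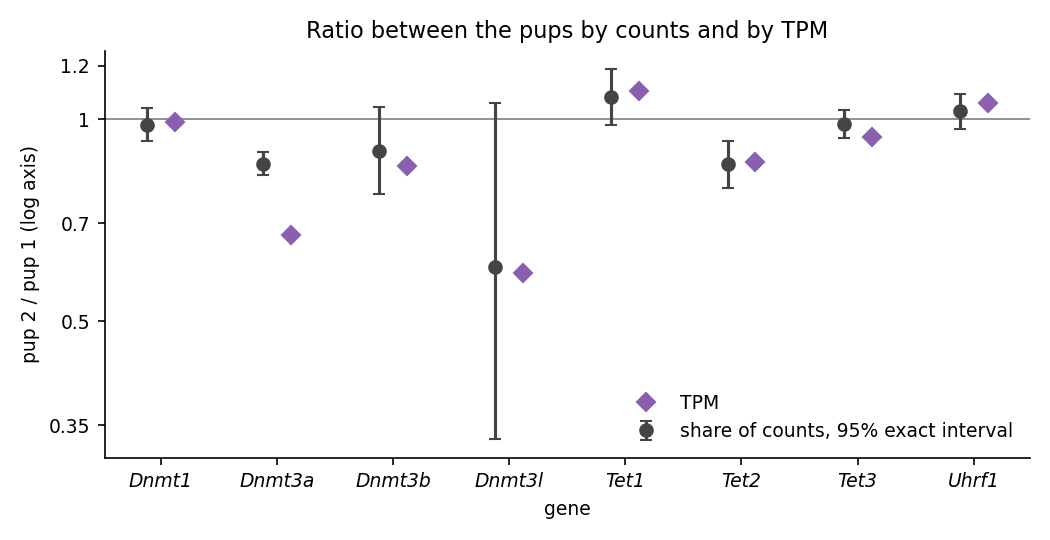
Ratio of pup 2 to pup 1 for each gene on a log axis, as the share of counts with its exact 95% interval (circles) and as TPM (diamonds); the line marks equality. The interval lies below 1 for Dnmt3a and Tet2, and Dnmt3a is the gene whose TPM ratio (0.671) falls well outside its count interval (0.825 to 0.893).

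Other differences ran between the same libraries. Of 13125 detected nuclear protein-coding genes, 1722 had higher levels in pup 2 with intervals apart and 1109 had lower ones. Among 14 genes of DNA replication and division, 4 had lower levels in pup 2 with intervals apart: Top2a (37.87 and 26.98 TPM), Mki67 (6.73 and 4.72), Rrm2 (35.41 and 32.68) and Rrm1 (26.78 and 23.59). Mcm6 was higher in pup 2 (47.11 and 50.03). Of 7 liver genes (Alb, Afp, Ahsg, Ttr, Fgb, Apoh and Trf), a list added after the values were seen, 7 were higher in pup 2, 6 with intervals apart, and their TPM summed to 202 in pup 1 and 288 in pup 2. By the 2-fold rule above, 3 of the 7 differed: Afp (20.76 and 47.15 TPM), Apoh (2.86 and 5.97) and Fgb (2.38 and 5.21). Of 7 blood genes 5 were detected, none was at 0, and their TPM summed to 721 in pup 1 and 900 in pup 2, most of it globin. The 5 detected genes did not share a direction: Hbb-bs, Hba-a1 and Alas2, of red cells, had higher values in pup 2, and the white-cell genes Ptprc (2.11 and 1.53 TPM) and Cd52 (17.42 and 15.44) lower ones. The part of these differences in the values of Dnmt3a and Tet2 was not tested.

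Promoter windows of 300 bases, from 250 before to 50 after a start, held a median of 7 CpG over all 32851 mouse windows in RefSeq, with quartiles of 3 and 20. Tet2, at 57, was above 99.8% of them, and the upstream windows of Dnmt3a had 46 and 47, with 18 at its internal start. Dnmt1 had windows with 33, 12 and 2 CpG, and Uhrf1 had 33 and 12. Dnmt3b had 30, Tet3 22 and Tet1 17, the last at a RefSeq start that no Tet1 transcript in the tables shares. Dnmt3l alone had no window above the median, with 6, 4 and 3 CpG. Dnmt3l was also the gene with the lowest level. Tet2, with the most CpG, was among the genes of low level.

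**Figure D5:**
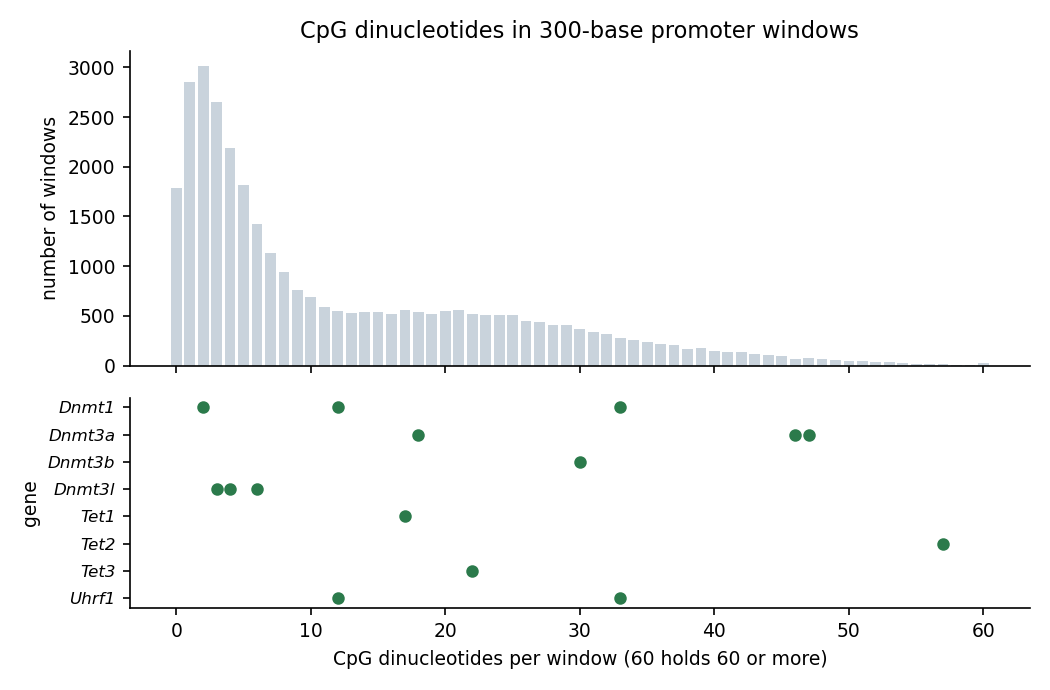
Upper panel, number of RefSeq promoter windows of 300 bases at each CpG count; lower panel, each window of the 8 genes at its own CpG count. Tet2 lies at 57 in the far right tail, and the 3 windows of Dnmt3l lie between 3 and 6, below the median of 7.

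E2F factors switch on genes of DNA replication, and 4 E2F-like words were searched on both strands of each window: TTTGGCGC, TTTCGCGC, TTTCCCGC and TTTGCCGC. They are the spellings of 1 consensus and differ from each other in its middle bases. These words were chosen after the sequences had been seen. Of all windows 2.26% held at least 1 of them, and of all genes with a window 2.61% did. Of the 15 windows of the 8 genes 2 did, in 2 genes: Uhrf1, with TTTCGCGC at position -185 from the start in the sequence printed above, and Dnmt1, in the window before Dnmt1-203, which lies partly within the first exon of Dnmt1-201 and is not printed. Of the 13 windows of 12 replication genes 6 held a word, each in a different gene. All 4 words contain a CpG. The median window held 7 CpG over all, 18 in the 8 genes and 24 in the replication genes. The shares over all windows and genes were not matched for CpG content. A match is a run of letters and not a measured site.

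Around the enzymes, 66 genes of the wider pathway were examined in 6 lists, and 61 were detected, beside 61.2% of nuclear protein-coding genes. Over all detected protein-coding genes, 21.6% had intervals apart in either direction. A list of methylated CpG readers and their relatives, called the readers below, had all 8 genes detected and 0 of 8 with intervals apart. Highest were the relative Mbd3 (70.7 ± 1.09 TPM) and the readers Mbd1 (13.6 ± 0.615) and Zbtb38 (12.5 ± 0.827). Of 14 partners and recruiters 12 were detected, led by the deacetylase Hdac1 (94.9 ± 0.0636 TPM), the corepressor Trim28 (86.2 ± 6.52) and Cdca7 (35.7 ± 1.63), a cofactor of the remodeller Hells. Trim28 alone had intervals apart, 81.58 and 90.80 TPM. The undetected partners were Dnmt3c, a male germline methyltransferase with 0 counts in both pups, and Dppa3, which protects the oocyte pattern and had 1 count in pup 1 and 0 in pup 2. Where a gene has 0 counts, up to 3 are allowed, which for pups 1 and 2 is 0.0582 and 0.0600 CPM.

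Genes that act after oxidation were well represented. Tdg, the glycosylase that removes oxidised methylcytosine, had 50.3 ± 1.99 TPM, Apex1, the endonuclease that acts after it, had 84.3 ± 4.999, and Gadd45b had 48.0 ± 0.891. Of these 13 genes 11 were detected, and Neil2 (0.15 and 0.10 TPM), another glycosylase, was below the limit. Apex1 and Ogt, a partner of the Tet proteins, had higher levels in pup 2 with intervals apart (80.74 and 87.81 TPM, and 34.97 and 41.14). Tdg stood above each of the Tet genes on the TPM scale.

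Methyl groups come from S-adenosylmethionine, which Mat2a makes with its partner Mat2b. Mat2a had 109 ± 3.25 TPM, Mat2b 75.1 ± 0.354 and Shmt2 29.8 ± 0.757. Of 12 genes of this cycle 11 were detected, and 3 of those had higher levels in pup 2 with intervals apart: Mat2a (106 and 111 TPM), Bhmt (1.66 and 2.90) and Gnmt (1.71 and 2.70). Over all detected protein-coding genes, 1722 of 13125 were higher in pup 2 with intervals apart. Mat1a, the liver form of the synthetase, had 0.65 TPM in pup 1 and 1.57 in pup 2, more than 2-fold apart and below detection in pup 1. Bhmt, Gnmt and Mat1a are known for their high levels in liver, and the liver genes above were higher in the same pup. Whether these differences share a source was not tested.

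Tet enzymes need 2-oxoglutarate, which isocitrate dehydrogenases supply. Idh2 (248 ± 0.608 TPM), Idh1 (146 ± 9.30) and Idh3a (71.4 ± 0.240) led this list of 5, in which 5 were detected. Idh1 was lower in pup 2 with intervals apart, 152 and 139 TPM. In the replication list Pcna (93.2 ± 1.499 TPM), the sliding clamp that helps to bring Dnmt1 to the fork, led with Mcm6 (48.6 ± 2.06) and Mcm7 (38.0 ± 1.10), and all 14 were detected. The median log2((TPM of pup 2 + 1)/(TPM of pup 1 + 1)) was -0.01 for the readers, 0.00 for the partners, 0.08 for the genes acting after oxidation, 0.06 for the methyl donor cycle, 0.01 for the cofactor genes and 0.00 for the replication genes, beside 0.03 over all detected protein-coding genes. By the same measure Dnmt3a was at -0.56, Tet2 at -0.16, Dnmt3b at -0.16, Tet3 at -0.08, Dnmt1 at -0.01, Uhrf1 at 0.08 and Tet1 at 0.11. Of the genes named beyond the 3 highest of each list, those with intervals apart were chosen after their values were seen.

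The tissue was checked by 8 stomach genes: Tff1 and Gkn1 of surface mucous cells, Pgc of chief cells, Atp4a of parietal cells, Krt5 and Krt13 of the squamous forestomach, Acta2 of muscle and Col1a1 of connective tissue. All 8 were detected, from 456 ± 32.5 TPM for Krt5 to 12948 ± 104 for Tff1, so glandular, squamous, muscular and connective parts were all in the sample. Which of these parts carries each methylation gene cannot be read from whole tissue. Genes that overlap the 8 in the genome had few counts where the tables list them: Aire (over Dnmt3l) 9 and 9, Dnmt3aos 1 and 1, Dnmt3bos 5 and 5, and B230319C09Rik (over Tet3) 13 and 10. The sources used here do not say whether strand was used in counting, so reads of overlapping genes could not be separated by strand. Aire ends at chr10:78043610, before the start of every Dnmt3l transcript that was given counts. None of the 36 and 21 counts of Dnmt3l was thus assigned to a transcript that reaches the overlap. That assignment is an estimate too. By the posterior mean, Dnmt3l-204, which reaches the overlap, held 18.0% of the gene's TPM in pup 1 and 24.4% in pup 2. The assignment therefore does not show that no read came from the overlap.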

How the data were processed

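Total RNA-seq was measured in the stomachs of 2 littermates, 1 library each, treated as replicates of 1 group. The authors deposited gene and transcript tables on mm10 with GENCODE M4, per the text files deposited beside them; the sources used here do not give the aligner, the quantifier or their versions. The expected counts deposited by the authors are estimated reads, not scaled for depth. The TPM and FPKM values the authors deposited are per effective length. The deposited interval bounds of TPM form a signal column of their own, whose level the sources used here do not give. The isoform percent deposited by the authors is a transcript's share of the gene's TPM.

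Symbols, positions and transcript types came from GENCODE M21 on the same assembly, which matched 42462 of 43346 genes and all 59 transcripts of the 8 genes, 56 with the same length. A transcript was called complete coding if M21 gives it the protein-coding type and marks neither end as missing. This was chosen after seeing the data, as were the count share without length and the scale per kb of longest transcript. A gene was detected if neither pup was below a TPM of 1; ratios used a pseudocount of 1. Scaling alternatives used edgeR 4.0.16 and DESeq2 1.42.0 factors over features with a mean count of at least 10, with no count test. Exact intervals (Clopper-Pearson, scipy 1.17.1) and floors cover only the error of counting, because PCR copies of a molecule were not told apart. Scripts were tested on simulated data. No p was computed. The members and lists were chosen with earlier results of these data known. Beyond the 8 genes, the text names the 3 highest genes of each list, those with a mean TPM under 1 where a sentence turns on them, and those called different. It also names list genes with intervals apart, which were chosen after their values were seen.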

Additional observations from a re-analysis of the deposited data

How the results depend on the processing

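The count of 7 detected genes fell to 4 at a TPM of at least 5 and was 8 at 0.5; it was 7 by FPKM, by the posterior mean, by complete transcripts and without either pup. The count of genes differing between pups, 0, was 2 with intervals apart at any fold and 0 at 1.5-fold and at the other count minimums. Genes of the pathway lists detected went from 61 to 50 at a TPM of at least 5. The log2 ratio of Dnmt3a, -0.56, was -0.31 by complete coding transcripts, -0.22 by count share and -0.62 on DESeq2 scaling, so its size depends on how transcript lengths enter. No gene's ratio changed sign under any alternative, but 3 of 6 list medians, all close to 0, did under TMM scaling. No paired analysis was possible because there is 1 group with 1 sample per replicate number. With 36 and 21 counts, Dnmt3l is limited by depth.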

Other observations

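Dnmt3a belongs to a small group in which the deposited effective length of a gene differed between the pups. Of the detected protein-coding genes, 329 (2.51%) had effective lengths that differed at least 1.2-fold, and in these the ratio of TPM and the ratio of counts can part. Over all detected genes, 97.8% had TPM values within 1.5-fold between the pups.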
